A study of Saccharomyces cerevisiae with 23 samples.

Results

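The phosphate regulon of budding yeast was followed through 10 of its genes, taken by name from a table of 6334 array features: the transporter genes PHO84 (YML123C) and PHO89 (YBR296C), the transport regulator SPL2 (YHR136C), the acid phosphatase genes PHO5 (YBR093C), PHO11 (YAR071W) and PHO12 (YHR215W), the alkaline phosphatase gene PHO8 (YDR481C), and the polyphosphate genes VTC1 (YER072W), VTC3 (YPL019C) and VTC4 (YJL012C). All 10 were measured in every line. The samples were 23 mutation accumulation lines of Saccharomyces cerevisiae, whose labels run from 19-1 to 19-50 and of which only the last number is given below, in unsynchronized log-phase growth in YPD at 30 °C to a density of about OD600 1.0. Each line, labelled with Alexa Fluor 555, shared a spotted-oligo array with 1 common strain, YPS183, grown to OD600 1.1 and labelled with Alexa Fluor 647, and the dyes were never exchanged. Each line had 1 column of normalized log ratios, and the labels do not say whether it averages the 2 biological replicates that the design text names. Neither do they give the relation of the lines to YPS183, their ploidy or their growth rate.

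In yeast, phosphate shortage lowers the activity of the cyclin-dependent kinase complex Pho80-Pho85 through its inhibitor Pho81. The transcription factor Pho4 then stays in the nucleus and, with its partner Pho2, turns on genes that release, import and store phosphate. In rich medium the pathway is largely repressed. Pho5, Pho11 and Pho12 are secreted acid phosphatases that free phosphate outside the cell, Pho84 imports it with protons and Pho89 with sodium, Spl2 acts on low-affinity uptake, the vacuolar enzyme Pho8 frees phosphate inside the cell, and the Vtc proteins form the complex that makes polyphosphate in the vacuole membrane.

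Neither the numerator nor the base of the ratio is given in the labels, so the values, taken to be log2, are called positive or negative as deposited. With the ratio turned over, every sign below would change except those of correlations and slopes. Over all features, 28 of 253 pairs of columns correlated below -0.3, the lowest being lines 4 and 44 (r = -0.64), although all lines carried the same dye. The columns of lines 1 and 45 were the most alike (r = 0.90) and were kept as separate lines. Array RNA came from whole cultures, so more cells expressing a gene and more RNA per cell cannot be told apart.

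The 10 genes did not share a single pattern. Their means over the lines were small, their spread between lines was uneven, and the acid phosphatase genes with VTC4 correlated with each other at r of 0.75 or more. PHO84 correlated with PHO5 and VTC4 less closely (r = 0.54 and 0.55), and SPL2, VTC1 and VTC3 with PHO5 at 0.42, 0.21 and 0.25. PHO89 and PHO8 correlated with PHO5 negatively (r = -0.39 and -0.71). None of the 10 means was distinguished from 0 by limma after Benjamini-Hochberg adjustment over all 6334 features, whereas 9.22% of all features were called, and 1 of the 10, PHO84, had an unadjusted p under 0.05, against 24.3% of all features. The median of the 10 means was 0.0121 and that over all features was -0.000269. The median SD over the lines was 0.388 for the 10 genes and 0.256 for all features.

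**Figure D1:**
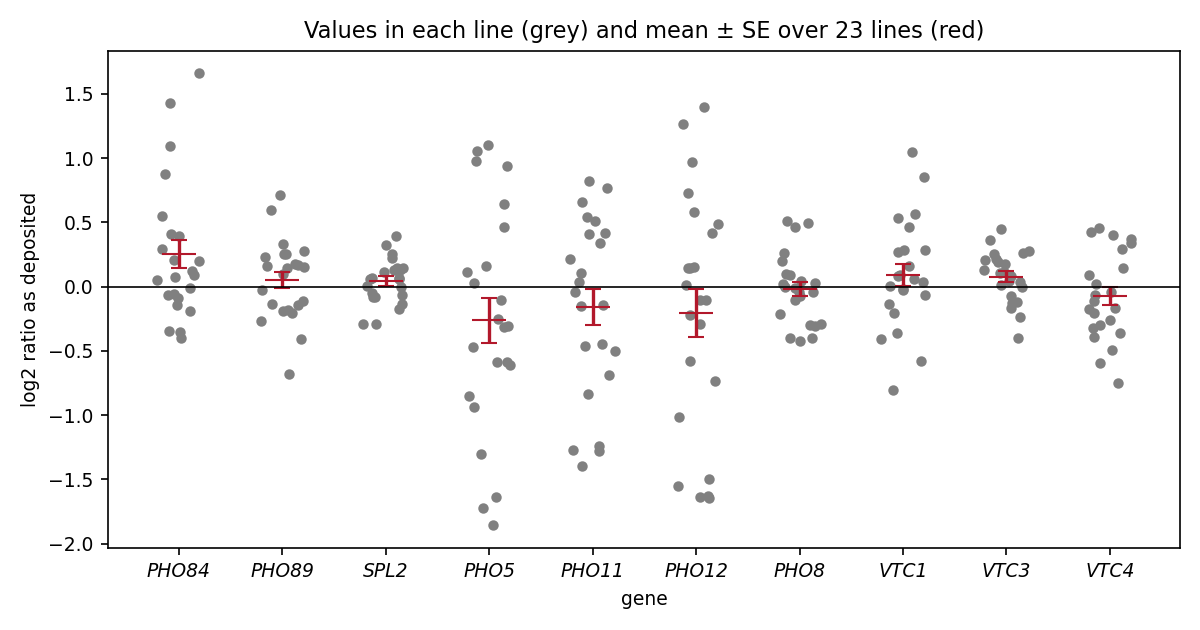
Log2 ratio (vertical axis, as deposited) of the 10 phosphate regulon genes (horizontal axis). Grey points are the 23 lines, placed sideways at random, and red bars are the mean and its standard error from limma. The points of PHO5, PHO11 and PHO12 are spread most widely, from -1.86 to 1.40, and those of SPL2 and VTC3 least.

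PHO84 encodes the high-affinity phosphate transporter. Its values ran from -0.40 in line 16 through a median of 0.09 to 1.66 in line 6. Lines 6 (1.66), 7 (1.43), 25 (1.10) and 42 (0.88) stood above the rest, and the other 19 lines lay between -0.40 and 0.55. Within their own columns these 4 values ranked 6th, 3rd, 24th and 52nd of 6334 features from the top. The mean over the lines was 0.25 ± 0.11 (SE, n = 23, limma adjusted p = 0.152), with 14 lines positive and 9 negative. Line 6 differed from the mean of the other lines by 1.47 ± 0.45 (SE), with 1.66 in line 6 against 0.19 in the others, and line 7 by 1.23 ± 0.48. Neither was called in the limma fit of single lines adjusted over all features and lines (adjusted p = 0.484 and 0.809).

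The other genes of the transport branch had smaller spreads. PHO89, the sodium-coupled transporter gene, ran from -0.68 in line 40 through a median of 0.14 to 0.71 in line 27, with a mean of 0.05 ± 0.06 (SE, n = 23, adjusted p = 0.671). SPL2 ran from -0.29 in lines 27 and 44 through a median of 0.06 to 0.40 in line 40, with a mean of 0.04 ± 0.04 (adjusted p = 0.558), and 18.0% of all features had a lower SD. PHO89 and SPL2 lay at opposite ends in the same lines. In line 27 PHO89 was at its highest and SPL2 at its lowest, and in line 40 PHO89 was at its lowest and SPL2 at its highest. Their correlation over the 23 lines was r = -0.65 (Spearman rho = -0.55), given as a description. It was -0.43 without lines 27 and 40, and -0.60 over all lines after the leading component of the table, described further on, was removed.

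The 3 acid phosphatase genes had the widest spread. PHO5 ran from -1.86 in line 8 through a median of -0.31 to 1.11 in line 4, and its SD of 0.884 exceeded that of 98.2% of all features. PHO12 ran from -1.64 in line 44 through -0.10 to 1.40 in line 6 (SD 0.944, above 98.9% of features). PHO11 ran from -1.40 in line 45 through -0.05 to 0.82 in line 6 (SD 0.701, above 95.2%). In 4 lines, 8, 21, 44 and 45, all 3 genes were at -1 or less. Over all features, lines 21 and 44 (r = 0.80) and lines 44 and 45 (r = 0.77) were the most alike after lines 1 and 45. The likeness of these lines was therefore not limited to these genes. In line 8 the values were -1.86 for PHO5, -1.24 for PHO11 and -1.63 for PHO12, and in line 44 they were -1.72, -1.27 and -1.64. At the other end were lines 4, 6, 22 and 25, where PHO5 lay between 0.94 and 1.11, PHO11 between 0.51 and 0.82 and PHO12 between 0.72 and 1.40. The 3 genes had the same sign in 16 of 23 lines, positive in 7 and negative in 9.

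The means of the acid phosphatase genes over the lines were -0.26 ± 0.17 for PHO5, -0.16 ± 0.14 for PHO11 and -0.20 ± 0.18 for PHO12 (SE, n = 23, limma adjusted p = 0.373, 0.528 and 0.544). No difference of a single line from the others was called for any of the 10 genes, in 230 pairs of gene and line, against 0.068% of all pairs of feature and line. Of those 230 pairs 11, or 4.78%, had an unadjusted p under 0.05, against 5.34% of all pairs. Values of 1 or more made up 3.48% of the members' values (8 of 230) and 1.05% of all values. Values of -1 or less made up 6.09% of the members' values (14 of 230) and 1.56% of all values, and all 14 belonged to PHO5 (4 lines), PHO11 (4 lines) and PHO12 (6 lines).

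**Figure D2:**
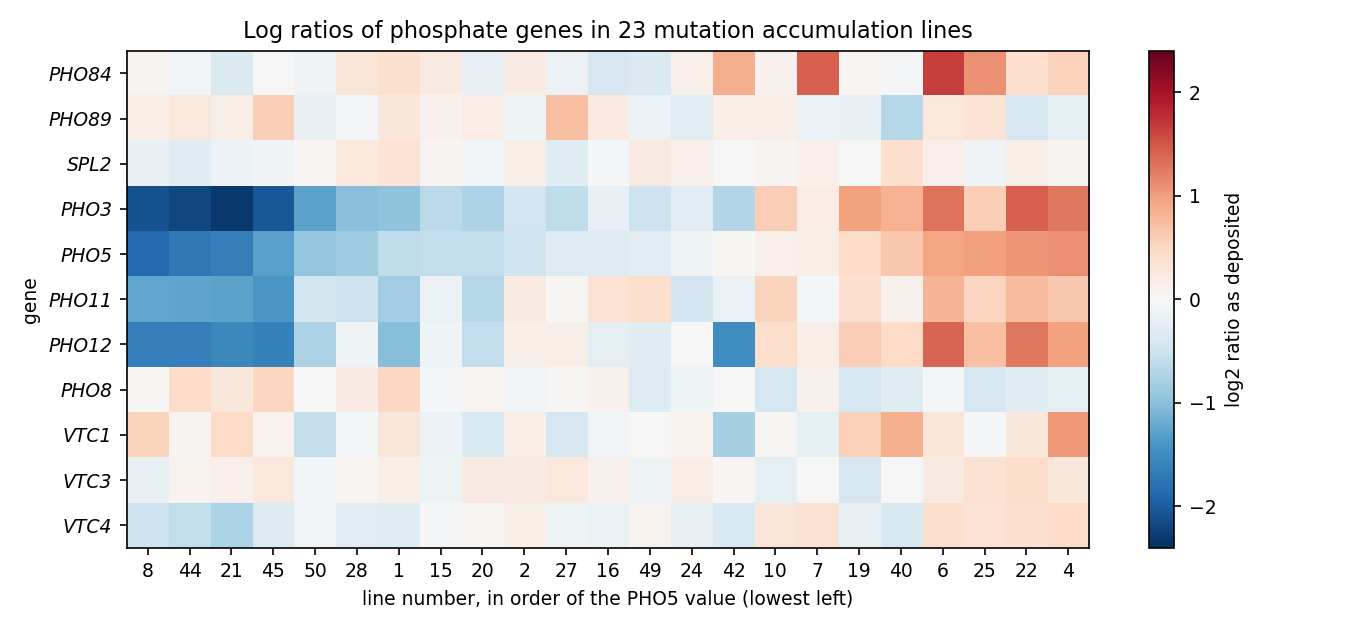
Log2 ratio as deposited (colour, red positive and blue negative) of the 10 phosphate regulon genes and PHO3 (rows) in the 23 lines (columns, in order of the PHO5 value). PHO3, PHO5, PHO11 and PHO12 are deep blue together in lines 8, 21, 44 and 45 and red together in lines 4, 6, 22 and 25, while PHO84 is darkest in lines 6, 7, 25 and 42.

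The acid phosphatase genes varied together over the lines. PHO5 correlated with PHO11 at r = 0.89 (rho = 0.86) and with PHO12 at r = 0.88 (rho = 0.89), and PHO11 with PHO12 at r = 0.89 (rho = 0.87). VTC4, the catalytic subunit of the polyphosphate polymerase, went the same way, at r = 0.75 with PHO5, 0.79 with PHO11 and 0.80 with PHO12. Those 4 genes gave 6 of the 9 pairs of members, of 45, with r of 0.5 or more. They were grouped by these same correlations, so the count of 6 is no separate result. Of all other features, 18.2% had r of 0.5 or more with PHO5 and 3.63% with PHO84. The share over all pairs of features was not computed. PHO8, whose protein acts inside the vacuole, went the opposite way, at r = -0.71 with PHO5, -0.79 with PHO11 and -0.71 with PHO12, and its sign was opposite to that of PHO5 in 17 of 23 lines. These correlations are descriptions over 23 columns that share 1 common reference strain.

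PHO3, the neighbour of PHO5 on chromosome II, followed PHO5 more closely than any other feature of the table. PHO3 encodes an acid phosphatase of the same family that is repressed by thiamine and not by phosphate. It ran from -2.31 in line 21 through -0.49 to 1.44 in line 22, with an SD of 1.15. Its correlation with PHO5 was r = 0.97 (rho = 0.95), the highest of 6333 features, and it was also the highest feature for PHO12 (r = 0.93), while for PHO11 (r = 0.91) it ranked 10th. The neighbour of PHO5 on the other side, PBY1, correlated with it at r = -0.16. PHO11 correlated with its measured neighbour YAR068W at r = 0.79. PHO12 correlated with its neighbours IMD2 and YHR214C-C at 0.62 and 0.02. Given PHO3, the partial correlation of PHO5 with PHO11 was 0.04 and with PHO12 -0.27. That of PHO11 with PHO12 was 0.25, and that of PHO5 with VTC4 was 0.07. With r = 0.97 between PHO3 and PHO5, little of the variation of PHO5 is left given PHO3. The partial correlations of PHO5 therefore cannot show whether its relation to the other genes runs through PHO3. PHO3 and PHO5 are close copies, as are PHO11 and PHO12, and whether their spots measure separate transcripts was not tested.

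PHO12 stood apart from its copy in 1 line. In line 42 PHO12 was at -1.49, the 4th lowest of the column's 6334 features, while PHO11 was at -0.15, PHO5 at 0.03 and PHO3 at -0.71. PHO12 minus PHO11 was -1.34 in that line and lay between -0.71 and 0.58 in the other lines. Without line 42 the correlation of PHO11 with PHO12 was 0.93. The measured neighbours of PHO12 near the end of chromosome VIII, YHR214C-C and IMD2, were at 0.19 and -0.35 in line 42.

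**Figure D3:**
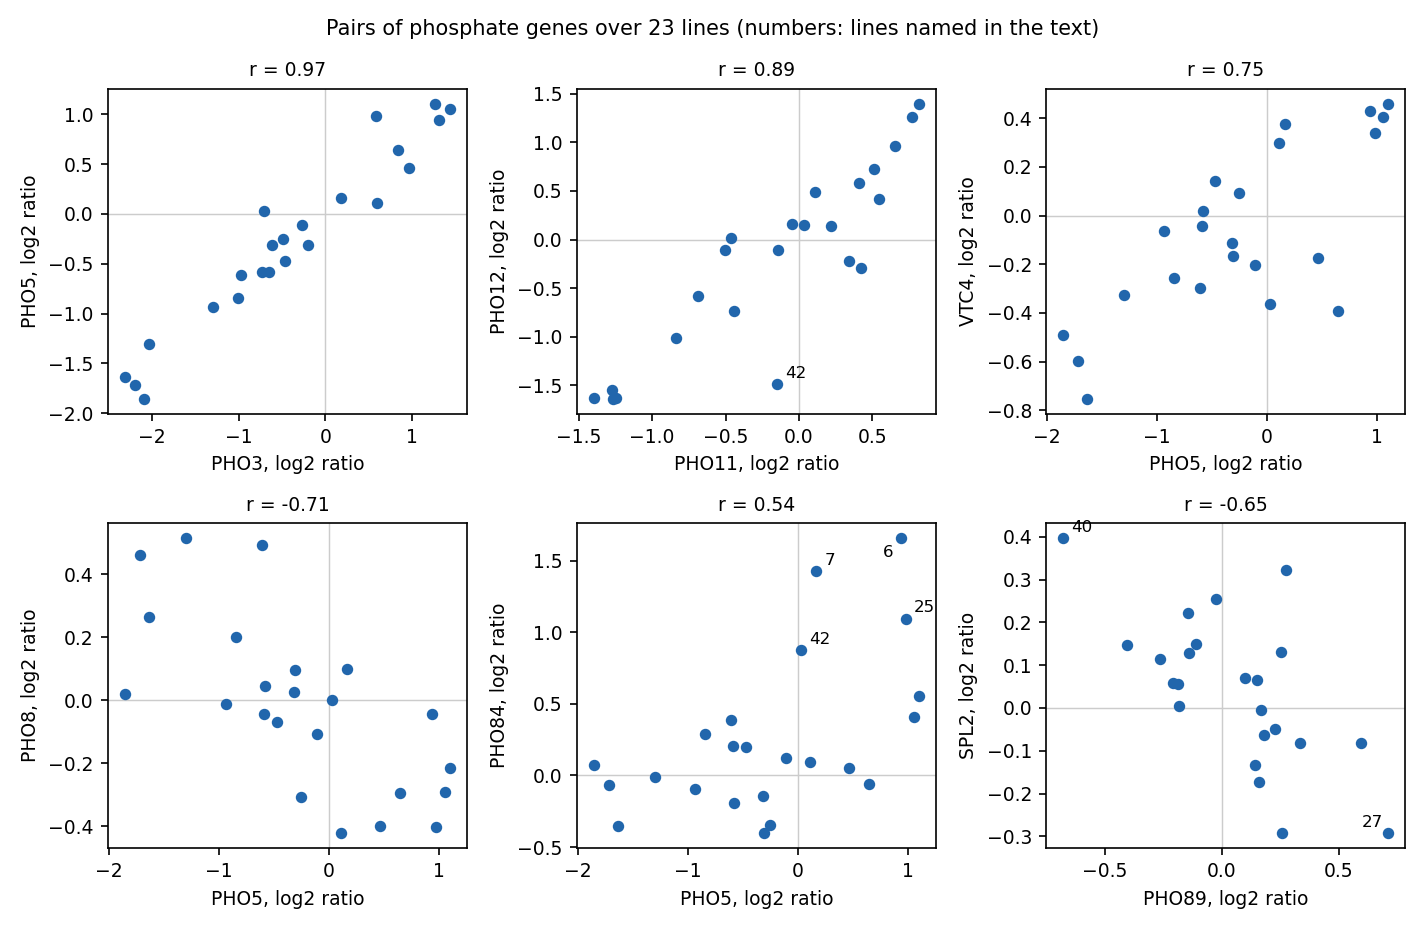
Log2 ratios as deposited of 6 pairs of genes, 1 point per line, with Pearson r over 23 lines above each panel and the lines named in the text numbered. PHO3 and PHO5 lie on a narrow band, line 42 lies below the band of PHO11 and PHO12, PHO8 is lower where PHO5 is higher, and the highest PHO84 values include lines 7 and 42, where PHO5 is near 0.

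The polyphosphate genes did not follow each other. VTC1 ran from -0.80 in line 42 through 0.06 to 1.04 in line 4, VTC3 from -0.40 in line 19 through 0.10 to 0.45 in line 22, and VTC4 from -0.75 in line 21 through -0.11 to 0.46 in line 4. Their means were 0.09 ± 0.09, 0.08 ± 0.04 and -0.07 ± 0.07 (SE, n = 23, limma adjusted p = 0.550, 0.271 and 0.569). VTC1 correlated with VTC3 at r = -0.00391 and with VTC4 at r = -0.00306, and VTC3 with VTC4 at r = 0.26, although the proteins form 1 complex. The alkaline phosphatase gene PHO8 had a mean of -0.02 ± 0.06 (adjusted p = 0.894) and ran from -0.42 in line 10 through -0.01 to 0.51 in line 45.

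PHO84, a textbook reporter of the pathway, was then set against the other genes. In a limma fit of each feature on PHO84, 0 of the 9 other members were called, as were 0% of the 6333 other features, and 3 members, PHO5, PHO12 and VTC4, had an unadjusted p under 0.05, as did 1002 of all features. The correlation was r = 0.54 with PHO5 (rho = 0.51, permutation p = 0.00667 and 0.0135, limma adjusted p = 0.182) and r = 0.55 with VTC4 (rho = 0.46, permutation p = 0.00539 and 0.0276, adjusted p = 0.182). With PHO12 it was r = 0.42 (rho = 0.49, permutation p = 0.0452 and 0.0193, adjusted p = 0.272) and with PHO11 r = 0.38 (rho = 0.36, permutation p = 0.0720 and 0.0925). Without lines 6 and 7, the farthest from the PHO84 median, r was 0.50 for PHO5, 0.38 for VTC4, 0.27 for PHO12 and 0.29 for PHO11. With SPL2 it was r = 0.21 (rho = 0.37, permutation p = 0.333 and 0.0807), with VTC3 0.24 (rho = 0.23, permutation p = 0.264 and 0.301), with PHO8 -0.12 (rho = -0.19, permutation p = 0.576 and 0.386), with VTC1 -0.05 (rho = 0.09, permutation p = 0.836 and 0.676) and with PHO89 0.01 (rho = -0.06, permutation p = 0.960 and 0.797). The permutation tests were two-sided, covered 9 relations and were not adjusted for their number. In the limma fit none of the 9 relations passed the adjustment over all features.

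Among all 6333 features, VTC4 ranked 104th and PHO5 129th by their correlation with PHO84. The 5 features outside the regulon with the highest r were TRM5 (0.76), ELA1 (0.74), TAH11 (0.74), KSS1 (0.73) and GLY1 (0.73), and the 3 with the lowest were YPC1 (-0.75), ATP19 (-0.70) and YLR252W (-0.69). The neighbours of PHO84 on chromosome XIII, TUB3 and YML122C, correlated with it at 0.41 and 0.28. In lines 7 and 42, where PHO84 was 1.43 and 0.88, PHO5 was 0.16 and 0.03 and SPL2 was 0.13 and -0.00468. In lines 6 and 25 PHO84 and the acid phosphatase genes were all high. PHO84, PHO5, PHO11 and PHO12 were at 1.66, 0.94, 0.82 and 1.40 in line 6, and at 1.10, 0.98, 0.51 and 0.72 in line 25.

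A fit of each feature on PHO5, chosen after the values were seen, called 5 of the 9 other members, against 37.1% of all features (19.2% positive and 17.8% negative). PHO11 (slope 0.70 ± 0.08, SE, n = 23, limma adjusted p = 4.92e-07), PHO12 (0.94 ± 0.10, adjusted p = 5.55e-07), VTC4 (0.29 ± 0.06, adjusted p = 0.000236) and PHO84 (0.34 ± 0.11, adjusted p = 0.0154) were called with a positive slope. PHO8 was called with a negative one (-0.22 ± 0.05, adjusted p = 0.00105). The relation of PHO84 and PHO5 is the same one that was not called in the fit on PHO84 (adjusted p = 0.182). Its unadjusted limma p was 0.00414 in the fit on PHO5 and 0.00428 in the fit on PHO84. The call therefore came with the adjustment, as 37.1% of all features were called on PHO5 and 0% on PHO84. The call of PHO84 was lost without line 6 (adjusted p = 0.0518). By r with PHO5, PHO11 ranked 11th, PHO12 16th, VTC4 250th and PHO84 990th of 6333 features.

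The acid phosphatase genes, VTC4 and PHO8 also moved with the widest pattern of the table. The leading component, the single pattern over lines that carried 44.0% of the variance of all features, is given here with the sign that makes PHO5 positive. It correlated with PHO12 at r = 0.87, with PHO11 at 0.87, with PHO5 at 0.84 and with VTC4 at 0.75, and with PHO8 at -0.86. For PHO84 it was 0.36, for VTC1 0.36, for SPL2 0.35, for PHO89 -0.42 and for VTC3 -0.02. The share of all features with correlations of this size was not computed, so these values do not set the genes apart. Once this component was removed, a setting chosen for the pairs after the values were seen, r was 0.60 for PHO5 with PHO11, 0.56 for PHO5 with PHO12 and 0.56 for PHO11 with PHO12. It was then 0.34 for PHO5 with VTC4, 0.04 for PHO5 with PHO8 and 0.90 for PHO5 with PHO3. No member was called in the fit on PHO5 after this removal (adjusted p = 0.103 for PHO11, 0.120 for PHO12, 0.194 for PHO84, 0.423 for VTC4 and 0.949 for PHO8). Of the 45 pairs of members, 3 then had r of 0.5 or more, against 9 before. At -0.5 or less there was then 1 pair, PHO89 with SPL2, against 5 before. The share over all features was not computed after the removal, so whether these drops are particular to the members is not known.

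**Figure D4:**
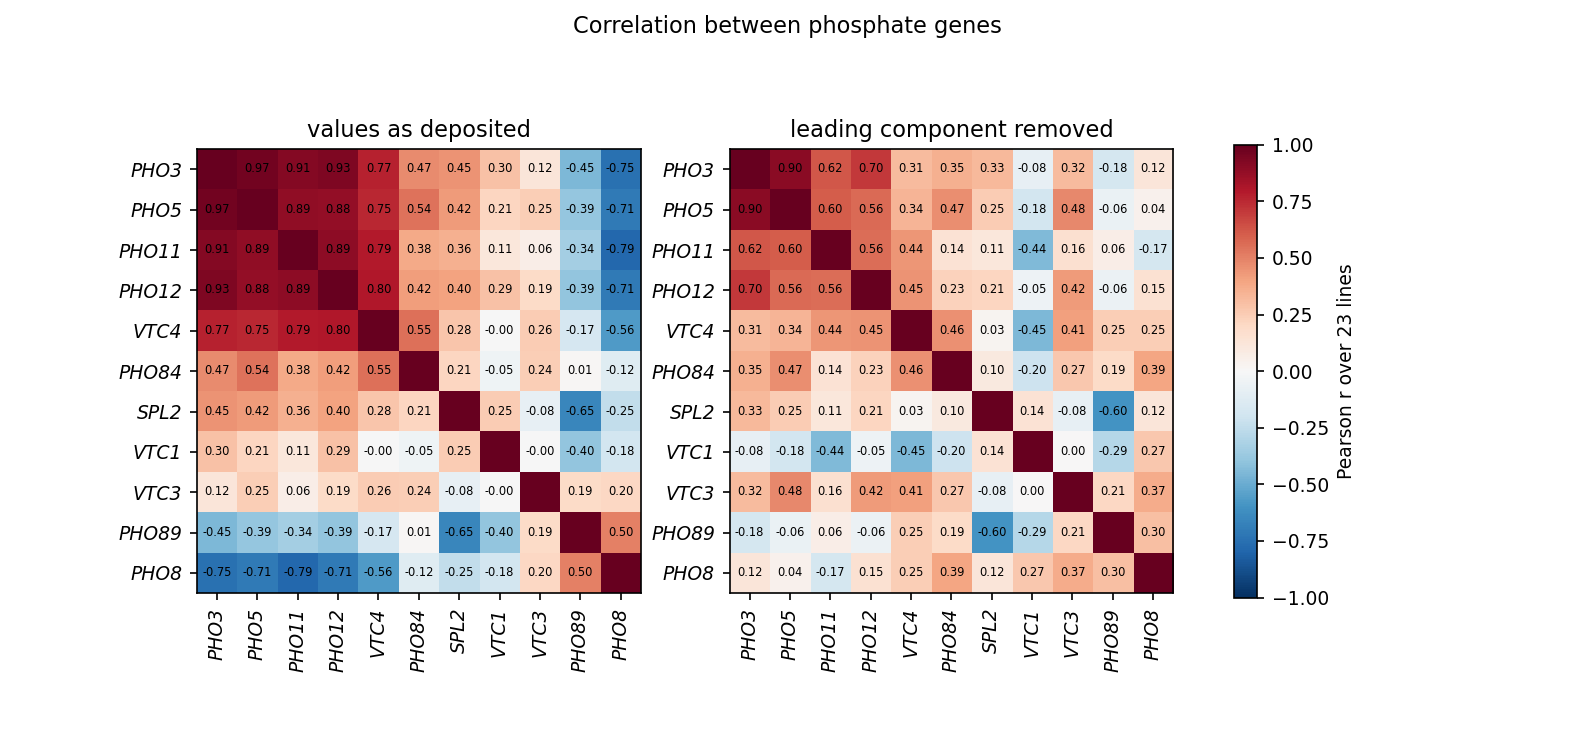
Pearson r over 23 lines between the 10 phosphate regulon genes and PHO3, from the values as deposited (left) and with the leading component removed (right). The block of PHO3, PHO5, PHO11, PHO12 and VTC4 on the left shrinks on the right, where PHO5 with PHO3 remains at 0.90 and PHO5 with PHO8 is at 0.04.

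Most THI genes varied with the acid phosphatase genes too. The 16 THI genes, named for thiamine, were taken by name and not by function. With their median, r was 0.88 for PHO5, 0.83 for PHO12 and 0.82 for PHO11, against 0.46 for PHO84, 0.55 for VTC4 and -0.67 for PHO8. Singly, 13 of the 16 THI genes had r of 0.5 or more with PHO5, as did 18.2% of all other features, and 5 had with PHO84, as did 3.63% of all other features. The remaining THI genes were THI72, THI74 and THI22, at r = -0.45, -0.25 and 0.03 with PHO5. Whether the spots of all 16 THI genes measure separate transcripts was not tested, so the 13 need not be separate observations. THI20 (0.94), of thiamine synthesis, was the feature nearest to PHO5 after PHO3. With the median of 138 ribosomal protein genes, r was 0.56 for PHO5, 0.05 for PHO84, 0.52 for VTC1 and -0.81 for PHO8. In line 8 the ribosomal protein median was 0.74 and the THI median -0.56, and PHO5 was -1.86. In line 4 these medians were 1.06 and 0.48, and PHO5 was 1.11. Their part in the values of the phosphate genes was not tested, and the lists were chosen after the values were seen.

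**Figure D5:**
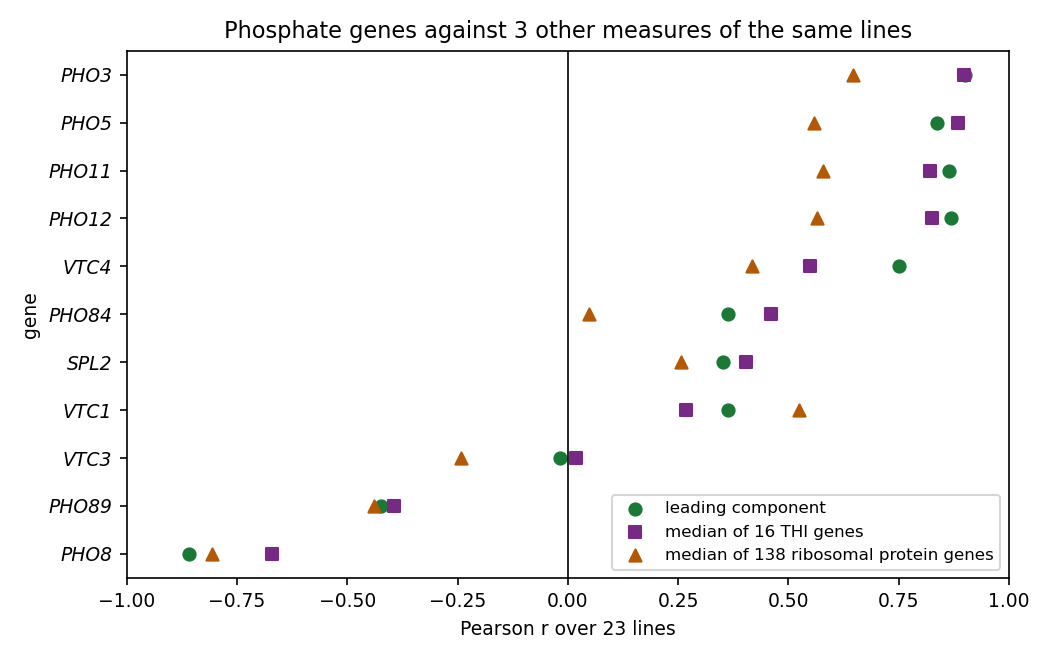
Pearson r over 23 lines (horizontal axis) of each phosphate gene and PHO3 (vertical axis) with the leading component of the table (circles), the median of 16 THI genes (squares) and the median of 138 ribosomal protein genes (triangles). PHO5 is at 0.84, 0.88 and 0.56, PHO84 at 0.36, 0.46 and 0.05, and PHO8 at -0.86, -0.67 and -0.81.

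The nearest feature outside the regulon over the 23 lines was PHO3 for PHO5 (r = 0.97) and PHO12 (0.93), TUB2 for PHO11 (0.95), RAD3 for VTC4 (0.91), MRPL22 for VTC1 (0.88), SRY1 for PHO8 (0.88), YBR134W for PHO89 (0.81), LDB16 for VTC3 (0.72) and ATG23 for SPL2 (0.71). The median over all features of a member's chromosome, in any single line, lay between -0.26 and 0.14. In line 20 it was -0.26 on chromosome XIII (PHO84), -0.22 on VIII (PHO12 and SPL2) and 0.14 on II (PHO5 and PHO89). On chromosome I (PHO11) it was 0.14 in line 44.

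Of 24 other phosphate genes, 3 had a called mean, 2 positive and 1 negative, against 9.22% of all features (3.99% positive and 5.23% negative). An unadjusted limma p under 0.05 was found for 6 of the 24, against 24.3% of all features. Among signalling genes PHO81, the kinase inhibitor of the pathway, had 0.17 ± 0.04 (SE, n = 23, limma adjusted p = 0.00547), with positive values in 19 of 23 lines. The others were not called: PHO85 and PHO80, the kinase and its cyclin, had 0.13 ± 0.06 and 0.09 ± 0.04 (adjusted p = 0.160 and 0.154), PHO4 and PHO2, the transcription factors, had 0.08 ± 0.04 and 0.07 ± 0.05 (adjusted p = 0.171 and 0.387), and the inositol phosphate enzymes KCS1, VIP1 and DDP1 had 0.02, -0.07 and -0.02. In transport, PHO86, needed for Pho84 to leave the endoplasmic reticulum, had 0.16 ± 0.04 (adjusted p = 0.00980), positive in 18 of 23 lines. The low-affinity transporter genes PHO87, PHO90 and PHO91 had 0.03, 0.02 and -0.02, the glycerophosphoinositol permease gene GIT1 had -0.03 and SND3, also known as PHO88, had -0.04.

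Among phosphatase, storage and other target genes, PHM6 was the 1 called, at -0.15 ± 0.05 (SE, n = 23, limma adjusted p = 0.0479), negative in 16 of 23 lines. PHO3 had -0.38 ± 0.22 (adjusted p = 0.306). The means of PHO13, VTC2, VTC5, PPN1, PPX1, GDE1 and PHM7 lay between 0.00463 and 0.11, and that of PHM8 was -0.21, with none called. PHM7 (SD 0.889) and PHM8 (SD 0.648) spread widely and opposite to PHO5, at r = -0.69 and -0.56 (adjusted p = 0.000747 and 0.0119 in the fit on PHO5). On the other side PHO90 followed PHO5 and PHO84 at r = 0.60 and 0.62, the first called (adjusted p = 0.00646) and the second not (adjusted p = 0.146). Its unadjusted limma p was 0.00137 in the fit on PHO5 and 0.000966 in the fit on PHO84. The calls differed through the adjustment, with 37.1% of all features called on PHO5 and 0% on PHO84. They do not show that PHO90 followed PHO5 more closely than PHO84. In all, 9 of the 24 genes were called in the fit on PHO5, 6 positive and 3 negative, against 37.1% of all features. In the limma fit on PHO84 0 of the 24 were called, as were 0% of the 6333 other features. There 5 of the 24 had an unadjusted p under 0.05, as did 1002 of the 6333.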

How the data were processed

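Each line was measured on a 2-channel spotted-oligo array, with cDNA from 15 μg of total RNA per the labels' protocols. The authors deposited 1 table of normalized log ratios, read here as log2. Background correction, normalization, filters, numerator, log base and averaging of replicates were not given in the sources used here. In all, the table held 6334 features in 23 columns with no missing value, with column medians from -0.018 to 0.018 and SDs from 0.245 to 0.583. Ratios alone were given, so signal over background is unknown, and the number of arrays limits the precision.

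Systematic names were paired with symbols and neighbours of assembly R64, 5623 exactly and 194 by a restored hyphen, and 517 stayed unmatched. All fits used limma 3.58.1 in R 4.3.3 on the whole table, with 1 group of lines, eBayes without trend, two-sided tests and Benjamini-Hochberg adjustment. The mean was an intercept alone. Each line was tested against the others with 1 indicator, with a threshold of 0.05 on the adjusted p and of 1 on the absolute difference, assuming that a line varies like the others. Association used the PHO84 value as a covariate. Correlations used Python 3.11.15, numpy 2.4.6, pandas 2.3.3 and scipy 1.17.1 with 100000 permutations, and figures matplotlib 3.10.9. Steps were tested on simulated data.

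Members and lists were chosen with earlier results of these data known. Named genes were all members, 24 other phosphate genes, the 5 highest and 3 lowest correlates of PHO84 and the nearest feature of each member. PHO5 as a covariate, PHO3 for the partial correlations, neighbours and the THI and ribosomal lists were added after the values were seen. Alternatives were scaling, quantile normalization, averaging lines 1 and 45, robust eBayes, array weights, removal of the leading component, and leaving out each line. Columns of lines 1 and 45 were to be averaged at r above 0.95, which they did not reach. P-values measure the spread between lines, since a line has no replicate of its own here.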

Additional observations from a re-analysis of the deposited data

How the results depend on the processing

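The counts of 0 members called on the mean, in single lines and in the fit on PHO84 stayed at 0 under each alternative run for them. Array weights raised the count of all features called on the mean to 1298, against 584. That count was 732 after scaling, 768 after quantile normalization, 465 with robust eBayes and 467 with lines 1 and 45 averaged. It ran from 454 to 682 when 1 line was left out. The called means of PHO81, PHO86 and PHM6 were not followed under the alternatives. The count of 5 members called in the fit on PHO5 was 0 with the leading component removed and 4 to 5 when 1 line was left out. Removing that component turned the slope of PHO8 on PHO84 to 0.109 (-0.0626 before), of PHO8 on PHO5 to 0.0124 (-0.221 before) and of VTC1 on PHO5 to -0.150 (0.103 before). Slopes and means near 0, none of them called, changed sign elsewhere. PHO89 on PHO84 was -0.0115 after scaling to a common median absolute deviation, -0.0119 after quantile normalization and -0.0332 with array weights, and ran from -0.0560 to 0.0532 when 1 line was left out. The mean of PHO8 was 0.00467 with array weights and ran from -0.0412 to 0.00132 when 1 line was left out, and VTC1 on PHO84 then ran from -0.113 to 0.0567. The cause of these changes was not tested. No paired analysis was possible because the lines form 1 group. With 1 column per line, the error of a single value was not measured.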
